A study of Homo sapiens with 3 samples.

Results

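Apolipoprotein genes were followed in the human melanoma cell line SK-Mel-28 after stable expression of a hairpin siRNA against melanotransferrin (MTf, gene MELTF), an iron-binding transferrin homologue held at the cell surface. The group consisted of 10 genes, APOD, APOE, APOC1, APOL1, APOL2, APOL3, APOL6, APOM, APOO and CLU. Its members were chosen by name, as the probe sets that the platform annotation assigns to them. The rule used no values, though the members were set with earlier results of these data known. They had 21 probe sets of 54613 non-control probe sets on the Human Genome U133 Plus 2.0 array, and 0 probe sets named a member together with another gene. Cells of both kinds carried the pSilencer 3.1-H1 neo vector. There was 1 array from cells with a scrambled hairpin and 2 arrays from cells with the MTf hairpin, aimed per the sample labels at nucleotides 2048 to 2066 of the MELTF transcript (the series' design text places it slightly further upstream, and which is right was not settled). The labels call the siRNA arrays B1 and B2, which are siRNA array 1 and siRNA array 2 here; signals below are given for scrambled cells against these 2 arrays in that order. Whether they are separate clones, cultures or repeats of one RNA is not stated, and p-values therefore reflect the spread of these arrays alone, technical spread included. The design sets the hairpin against MELTF beside the scrambled one to see which other genes respond.

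Apolipoproteins bind lipids and carry them between cells or between membranes. APOE and APOC1 ride on lipoprotein particles, where APOE is the ligand for receptors of the LDL receptor family and APOC1 modulates lipid enzymes and uptake. APOM is a lipocalin that carries sphingosine 1-phosphate on high-density lipoprotein. APOD is another lipocalin, which binds arachidonic acid and steroids and is abundant in glia. CLU, clusterin or apolipoprotein J, is a secreted chaperone. The APOL proteins act mostly inside cells on membranes and ion flux, APOL1 being the secreted trypanosome lytic factor, and several of their genes are known to be induced by interferon. APOO carries an apolipoprotein name but works in the mitochondrial inner membrane as a subunit of the MICOS complex, which holds cristae junctions in shape.

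The targeted gene and the arrays were checked first. The brightest of 4 MELTF probe sets read 32608 in scrambled cells against 18968 and 18974 (limma adjusted p = 0.0699), while another bright one read 8284 against 10567 and 11199, so the probe sets of the target did not move together. On each array the median signal of all probe sets lay between 160.6 and 199.5, and on the log2 scale this median was 0.12 higher in the siRNA cells. The 6 ribosomal RNA control probe sets were brighter than on the scrambled array by a median factor of 3.76 for siRNA array 1, and of 1.06 for siRNA array 2. Of 7 melanocyte markers measured (MLANA, PMEL, TYR, TYRP1, SOX10, MITF and S100B), 7 were above the highest bacterial trp control signal, 97.2, on every array. TYRP1 fell from 53204 to 5022 and 12370 (limma adjusted p = 0.0374, a call lost with 5 of the alternatives), TYR read 19988 against 35193 and 37555 (adjusted p = 0.0529), and the part of these changes in the members' values was not tested. Of 9 macrophage or leukocyte markers, which matter here because macrophages express APOE and APOC1, 5 (PTPRC, CD14, CD163, TYROBP and C1QA) were below 97.2 on every array. LAPTM5 read 306.8 against 331.9 and 689.2, above 97.2 on every array, and CSF1R read 161.8 against 96.8 and 213.5. The signals of all 9 summed to 840.6 in scrambled cells against 677.4 and 1319. Of 6 hepatocyte markers, 1 (TTR) was above 97.2 on every array, and their summed signal was 711.2 against 564.3 and 1253. The 6 fibroblast markers summed to 1757 against 5666 and 5883, most of the siRNA sums coming from LUM. The part of these cell types in the results below was not tested.

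RefSeq promoter windows (GRCh38.p14) were at hand for 4 of the 10 members, APOE, APOC1, APOM and APOO, and not used here for the others. The 250 bases before the start are shown for APOE and APOC1, because these neighbours on chromosome 19 gave different values below, and for APOO, the member with the second-lowest p-value. They lie at chr19:44905546-44905795 on the plus strand (the first of 3 APOE starts), chr19:44914422-44914671 on the plus strand and chrX:23907939-23908188 on the minus strand. Capitals mark the GC box letters GGGCGG on either strand, a motif added after the windows had been read.
APOE: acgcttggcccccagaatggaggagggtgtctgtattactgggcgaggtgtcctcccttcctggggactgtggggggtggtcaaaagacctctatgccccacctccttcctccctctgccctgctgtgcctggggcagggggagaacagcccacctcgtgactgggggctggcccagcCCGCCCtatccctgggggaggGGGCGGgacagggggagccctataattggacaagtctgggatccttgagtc
APOC1: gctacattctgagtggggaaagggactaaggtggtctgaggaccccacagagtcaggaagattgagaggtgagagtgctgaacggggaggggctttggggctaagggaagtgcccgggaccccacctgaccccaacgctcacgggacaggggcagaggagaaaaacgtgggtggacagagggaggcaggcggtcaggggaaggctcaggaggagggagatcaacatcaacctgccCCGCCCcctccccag
APOO: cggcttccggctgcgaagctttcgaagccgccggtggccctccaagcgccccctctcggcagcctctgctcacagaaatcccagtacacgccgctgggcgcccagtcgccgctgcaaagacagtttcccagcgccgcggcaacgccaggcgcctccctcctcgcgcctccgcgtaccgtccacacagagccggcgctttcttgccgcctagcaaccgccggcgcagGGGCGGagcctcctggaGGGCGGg
These windows held 2, 1 and 2 GC boxes, and the other APOE windows 0 each, against at least 1 in 42.6% of all 35116 RefSeq windows of this length. The letters of an interferon-stimulated response element core (GAAANNGAAA, 3.02% of all windows), a gamma-activated site (TTCNNNGAA, 6.57%), a TATA box (TATAAA, 10.7%) and the E-boxes CACGTG (6.34%) and CATGTG (9.42%) were searched on both strands, without overlap with the GC box, and had 0 matches in the 3 windows shown. The APOM window had 0 matches to any of the 6 motifs. A match or its absence describes these letters only.

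Each gene was represented by its brightest probe set, and probe sets were tested if their mean over the 3 arrays on the log2(signal + 47.4) scale was above the median of all probe sets, equal to a signal of about 166.3. Of the 10 members, 8 were tested and 2, APOL3 and CLU, were too dim. The scrambled signal alone was above that level for each of the 8, the lowest being 185.1 for APOC1. Of the 8, 0 passed limma's adjusted p of 0.05, against 2.64% of the 12386 genes tested (1.5% higher and 1.14% lower). At an unadjusted p under 0.05 there were 3 (APOL6, APOO and APOL2), each higher in the siRNA cells, against 22.9% of all genes (14.0% higher and 8.92% lower). The differences were above 0 on both siRNA arrays for 6 of the 8, against 46.7% of all genes, and below 0 on both for 1, against 32.5%. The 6 include APOM, whose second tested probe set was below 0 on both. Of all 12 tested probe sets of the members, 7 were above 0 on both. The median log2 difference of the 8 was 0.54 (0.39 for siRNA array 1, 0.69 for siRNA array 2), beside 0.097 over all genes tested (0.057 and 0.14). Both siRNA arrays are compared with the same scrambled array, so their differences are not independent of each other.

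**Figure D1:**
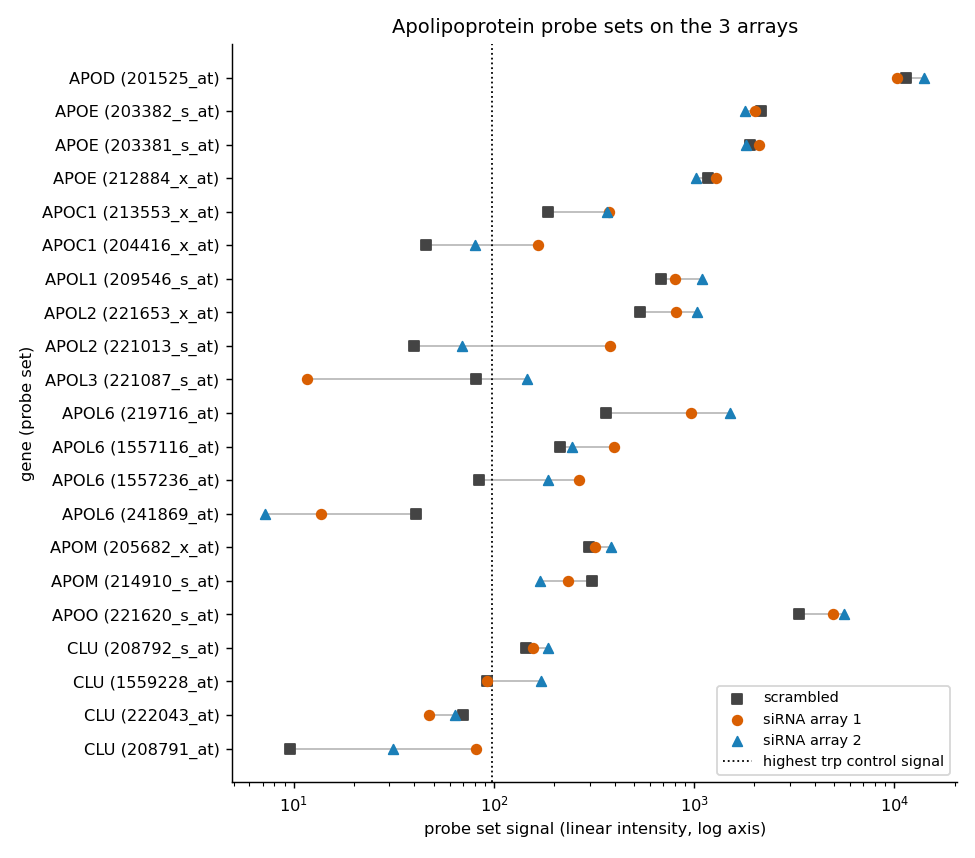
Signal of each of the 21 apolipoprotein probe sets on a log axis, with the scrambled array as squares, siRNA array 1 as circles and siRNA array 2 as triangles. The dotted line is the highest trp control signal, 97.2. APOD, APOE and APOO lie well above it on all 3 arrays, whereas APOL3 and 3 of the 4 CLU probe sets lie below it on at least 2 arrays.

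APOD, the lipocalin, was bright and differed little. Its 1 probe set gave 11458 in scrambled cells against 10288 and 14132. The scrambled signal lay between those of the siRNA arrays. The log2 difference of siRNA from scrambled cells was 0.073 ± 0.24 (SE; limma adjusted p = 0.902), and the sign turned, to -0.096, when arrays were centred on their medians. The fold was 1.05 with a 95% confidence interval of 0.715 to 1.55, so that changes within this range remain compatible with the values. In RNA of a whole culture, fewer cells expressing a gene and less RNA per cell cannot be told apart. The pair of differences was not distinctive: 139 other genes had both differences within a Euclidean distance of 0.1 of it, and the 3 nearest over the 2 siRNA arrays were LRRC36, ACSL6 and QTMAN, at distances of 0.0052 to 0.0061.

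APOE, the receptor ligand of lipoprotein particles, also differed little, in 3 probe sets. The brightest gave 2155 in scrambled cells against 2017 and 1794, the scrambled value being the highest. A second read 1901 against 2099 and 1812, and the last 1177 against 1280 and 1025; in both, the scrambled value lay between those of the siRNA arrays. Their log2 differences were -0.18 ± 0.25, 0.036 ± 0.25 and -0.037 ± 0.28 (SE; limma adjusted p = 0.753, 0.957 and 0.961). The 95% interval of the fold for the brightest was 0.591 to 1.33. Within 0.1 of its pair of differences lay 295 genes, the nearest being CLK3, SBF2-AS1 and POLR2G.

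APOC1, whose gene lies next to APOE, was dim and read about 2 times higher in the siRNA cells. Its brighter probe set gave 185.1 in scrambled cells against 373.7 and 366.0, both above the scrambled value and close to each other. The log2 difference was 0.84 ± 0.37 (SE; limma adjusted p = 0.258), or 1.80-fold with a 95% interval of 0.985 to 3.27, which includes 1. The dimmer probe set read 45.6 against 166.5 and 80.2, above the trp control level on siRNA array 1 alone, and was not tested. Both APOC1 probe sets, and the dimmest of APOE, carry the suffix by which the manufacturer marks probes that can match other sequences. Other transcripts may therefore add to these signals. Whether APOC1 and APOE differ in their response was not tested.

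APOM, the sphingosine 1-phosphate carrier, had 2 tested probe sets of opposite sign. One read 297.8 against 320.0 and 382.1, higher on both siRNA arrays (log2 difference 0.20 ± 0.36, SE; limma adjusted p = 0.811). That probe set carries the same suffix as those of APOC1, so other transcripts may add to its signal. The other read 309.8 against 234.8 and 170.2, lower on both (-0.53 ± 0.42, SE; adjusted p = 0.534). The mean of both was -0.16 (adjusted p = 0.857), so no direction can be given for APOM.

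CLU, the secreted chaperone, stayed at the edge of measurement in all 4 probe sets. The brightest gave 144.3 in scrambled cells against 157.5 and 185.6, with a mean log2 value of 7.71, just under the limit of 7.74 for testing. The others read 91.9 against 92.0 and 172.1, 70.3 against 47.1 and 63.6, and 9.6 against 80.9 and 31.3. These 3 were below 97.2 on at least 2 arrays each, and no fold is given for them. Without the filter the brightest differed by 0.19 on the log2 scale. The genes with the most alike pair of differences were RAB2B, BAMBI and DMTN, among 312 within 0.1.

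The APOL genes held the largest difference of the group. APOL6, an intracellular member with a BH3-like domain, read 361.2 in scrambled cells against 963.6 and 1516 in its brightest probe set. Both siRNA values were far above the scrambled value, and it was the 1 member at least 2-fold higher on both arrays, which was the case for 4.19% of all genes, while 0 members were 2-fold lower on both, against 1.94%. The log2 difference was 1.62 ± 0.35 (SE), or 3.08-fold with a 95% interval of 1.76 to 5.39, with limma adjusted p = 0.0643, short of the threshold. Over all genes tested 1.61% had a difference at least as high. Centring the arrays on their medians gave 1.45 (adjusted p = 0.0205, past the threshold), whereas centring on the medians of the tested probe sets gave 1.46 (adjusted p = 0.0679), and over the alternatives run the adjusted p ranged from 0.0205 to 0.194. The mean of its 2 tested probe sets gave a smaller difference, 1.05 (adjusted p = 0.0987). The other APOL6 probe sets were dimmer. One read 212.5 against 397.8 and 245.2 (log2 difference 0.47 ± 0.42, SE; adjusted p = 0.589). Another read 83.9 against 266.8 and 186.9, at least 2.30-fold higher in the geometric mean of both siRNA arrays with the scrambled value raised to 97.2. The last read 40.9 against 13.7 and 7.2, all below the trp control level.

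APOL2, which lies beside APOL1 and is an intracellular protein, read 538.1 in scrambled cells against 807.1 and 1030. Both siRNA values were above the scrambled one (log2 difference 0.71 ± 0.30, SE; limma adjusted p = 0.247; 1.64-fold, 95% interval 1.001 to 2.68). A dimmer APOL2 probe set read 40.0 against 381.7 and 69.6, which puts it above 97.2 on siRNA array 1 alone. APOL1, the trypanosome lytic factor, read 679.7 against 805.9 and 1090 in its 1 probe set. The log2 difference was 0.44 ± 0.31 (SE; limma adjusted p = 0.480; 1.35-fold, 95% interval 0.820 to 2.24). APOL3 was dim and went opposite ways on the siRNA arrays, at 81.5 against 11.6 and 147.0, and was not tested. APOL transcripts are alike in sequence, and the brightest APOL1 and APOL2 probe sets carry suffixes for probes shared among transcripts or able to match others, so signal may pass between these genes.

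APOO, the MICOS subunit, was bright and higher on both siRNA arrays. Its 1 probe set gave 3332 in scrambled cells against 4918 and 5601. The log2 difference was 0.65 ± 0.22 (SE), or 1.57-fold with a 95% interval of 1.09 to 2.25. It had an unadjusted p of 0.0220 and a limma adjusted p of 0.168, so it did not pass over all genes.

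**Figure D2:**
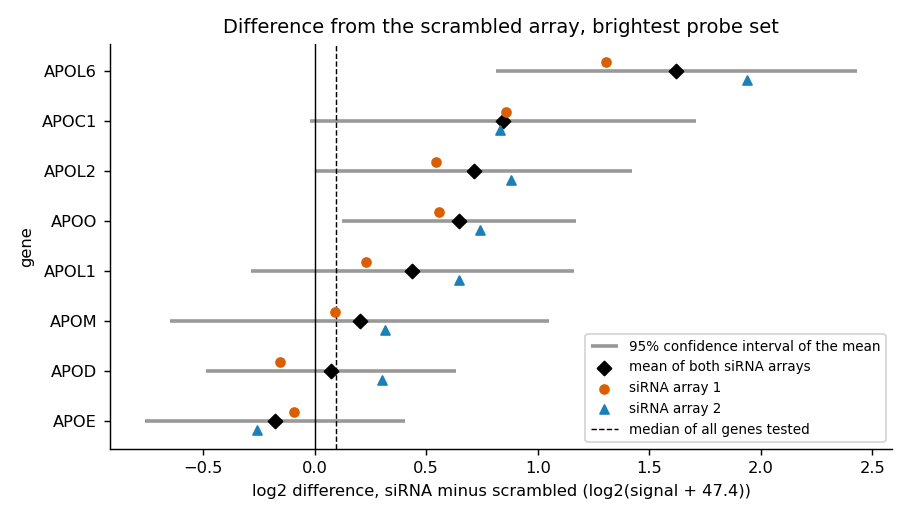
Log2 difference of siRNA from scrambled cells, on the log2(signal + 47.4) scale, for the brightest probe set of the 8 tested genes. Circles and triangles are siRNA arrays 1 and 2, diamonds their mean, bars the 95% confidence interval from limma, and the dashed line the median of all genes tested, 0.097. APOL6 stands at 1.62, while APOD and APOE lie near 0 with intervals that span it.

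Other apolipoprotein genes were mostly dim. Of 14 listed (APOA1, APOA2, APOA4, APOA5, APOB, APOC2, APOC3, APOC4, APOF, APOH, APOL4, APOL5, APOOL and LPA), 13 had a probe set of their own and 1, APOOL, was bright enough to test. APOOL, a paralogue of APOO in the same complex, read 2800 against 2807 and 2309 (log2 difference -0.13 ± 0.25, SE; limma adjusted p = 0.818). Dimmer APOOL probe sets differed by -0.38, -0.40 and -0.076 (limma adjusted p = 0.4825, 0.459 and 0.927). The last of these went opposite ways on the siRNA arrays, while the others were lower on both. APOA1, the main protein of high-density lipoprotein, read 38.9 against 108.5 and 254.9, and APOA2 read 30.8 against 174.1 and 168.4. APOB, the structural protein of low-density lipoprotein, read 144.9 against 167.9 and 174.0. Other genes of this list read lower on both siRNA arrays: APOA5 gave 189.8 against 140.6 and 160.9, APOA4 gave 119.1 against 27.4 and 117.2, and APOF and APOL5 were below 97.2 throughout. At these signals no direction can be given for the list.

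In the MICOS complex and its outer membrane partners the values went both ways. Of 10 genes tested limma called 0, and at an unadjusted p under 0.05 there were 1 higher and 1 lower, near the 22.9% of all genes, with a median log2 difference of 0.041. SAMM50, a subunit of the outer membrane sorting machinery, read 15152 against 24900 and 21706 (0.62 ± 0.19, SE; adjusted p = 0.130). Its second probe set was also higher on both siRNA arrays (0.81 ± 0.19, SE, limma adjusted p = 0.0743). MTX2, a metaxin of the outer membrane, read 12043 against 7753 and 6582 (-0.75 ± 0.21, SE; adjusted p = 0.112). The MICOS subunit CHCHD6 read 2472 against 1591 and 1778, and the core subunit IMMT, or mitofilin, 8644 against 10170 and 12078. APOO thus differed in the direction of IMMT and SAMM50 and not in that of MTX2 and CHCHD6, a comparison that was not tested.

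Genes that receive, move and degrade lipoprotein lipid were compared next. Of 36 listed, 31 had a probe set of their own and 22 were tested; 0 rose and 1 fell over all genes, 4 were higher and 2 lower at an unadjusted p under 0.05 (14.0% and 8.92% of all genes, so that the total is near the background), and the median log2 difference was 0.13. NPC1, which exports cholesterol from the lysosome, fell from 30230 to 14281 and 10584 (log2 difference -1.29 ± 0.23, SE; limma adjusted p = 0.0424). Dimmer NPC1 probe sets gave differences of -0.79 and -0.14 (adjusted p = 0.326 and 0.886), and the call was lost without the filter, with the filter at the 75th percentile, with quantile normalization, without the trend and with the mean of the probe sets. NPC2, the soluble partner of NPC1, read 12190 against 21626 and 20904, the other way (0.80 ± 0.18, SE; adjusted p = 0.0711, and past the threshold with quantile normalization). The phospholipid transfer protein gene PLTP read 1192 against 518.2 and 476.4 (-1.19 ± 0.30, SE; adjusted p = 0.0870).

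The tested receptor genes were all above 0 in the mean, the lowest at 0.22. Of 7 tested 0 passed and 6 were above 0 on both siRNA arrays, against 46.7% of all genes, with a median log2 difference of 0.36. CD36, a scavenger receptor for oxidised lipoproteins, read 280.5 against 83.3 and 126.1, at least 2.53-fold lower, and it was untested because its mean fell below the filter although its scrambled signal was above it. APOBR, a receptor for APOB, read 67.2 against 45.2 and 26.5, all below the trp control level. SCARB1, the high-density lipoprotein receptor SR-BI, read 3122 against 4882 and 7000 (0.90 ± 0.27, SE; limma adjusted p = 0.129), and its second probe set 1468 against 2716 and 3640 (adjusted p = 0.0895). The sorting receptor gene SORL1, whose product binds APOE, read 2970 against 4232 and 7199 (adjusted p = 0.190). Its second probe set read 2076 against 3818 and 6174 (limma adjusted p = 0.0943), and a dimmer one differed by 0.64 (adjusted p = 0.516). Of 3 exporters tested 0 passed, and the cholesterol exporter gene ABCA1 was too dim to test at 119.0 against 161.4 and 107.8. Of 6 regulators tested 0 passed and 0 had an unadjusted p under 0.05. NR1H3, the liver X receptor alpha gene whose product is known to drive APOE and ABCA1, read 274.1 against 291.7 and 293.4.

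Interferon response genes, listed because APOL genes are known to answer interferon, were mostly above 0. Of 21 listed 18 were tested, limma called 0, and 8 were higher at an unadjusted p under 0.05, against 14.0% of all genes. On both siRNA arrays 16 of the 18 were above 0, against 46.7% of all genes. The median log2 difference was 0.69 (0.46 for siRNA array 1, 0.96 for siRNA array 2), beside 0.097 over all genes tested. The antiviral gene MX1 read 67.1 against 348.9 and 397.3, at least 3.83-fold higher, and IFIT1 read 14.2 against 304.1 and 1014, at least 5.71-fold higher. In scrambled cells both lay below the filter level of 166.3, so they entered the test only through the siRNA arrays and had to differ. Among the other 16 genes 6 were higher at an unadjusted p under 0.05, 14 were above 0 on both siRNA arrays, and the median was 0.65. The ubiquitin-like modifier gene ISG15 read 1012 against 2444 and 2530, and the protease gene USP18, which removes ISG15 from proteins, 337.3 against 1042 and 890.6. The difference of APOL6, 1.62, lies above those of ISG15, 1.26, and USP18, 1.39. Only MX1, 1.87, and IFIT1, 3.31, which had to differ, lie above it. The difference of APOL2, 0.71, lies near the list's median, and that of APOL1, 0.44, below it. The relation between the APOL genes and the list was not tested. This list overlaps one whose shift was already known from an earlier analysis of these arrays and is not independent evidence.

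**Figure D3:**
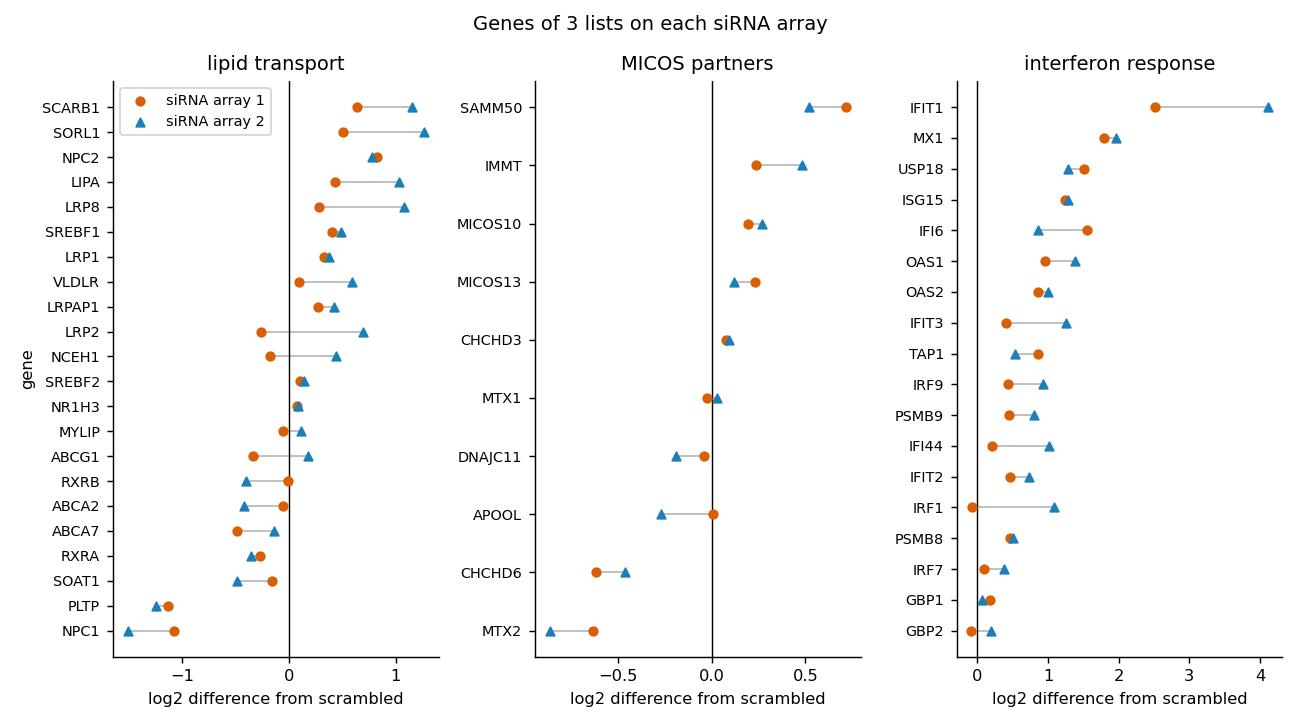
Log2 difference from the scrambled array on siRNA array 1 (circles) and siRNA array 2 (triangles) for tested genes of the lipid transport list, the MICOS partners and the interferon response list, each on its own axis. NPC1 and PLTP lie lowest among lipid transport genes at -1.29 and -1.19 in the mean, and IFIT1 and MX1 highest among interferon response genes.

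Members lie at 6 loci, and the 5 nearest tested genes on each side were read beside them. Around APOD, on the chromosome 3 arm that also carries MELTF, 9 of 10 neighbours were below 0 in the mean, against 42.5% of all genes, with a median log2 difference of -0.57. At an unadjusted p under 0.05 there were 6, against 22.9% of all genes, though 0 passed. LSG1, a ribosome biogenesis GTPase, read 6994 against 3177 and 3620 (limma adjusted p = 0.0678), and the phosphatidylcholine synthesis gene PCYT1A 3256 against 1615 and 1764 (adjusted p = 0.0980). The nearest tested genes on either side of APOD did not pass: PPP1R2, a protein phosphatase inhibitor gene, read 6615 against 4440 and 4474 (adjusted p = 0.1995), and the kinase gene TNK2 498.5 against 165.9 and 279.6 (adjusted p = 0.224). APOD at 0.073 and ZDHHC19 at 0.20 were the 2 genes of this stretch above 0, and APOD turned to -0.096 with arrays centred on their medians; the difference of APOD from its neighbours was not tested. Around APOE and APOC1 the 10 neighbours had a median of -0.21 with 3 above 0, against 57.5% of all genes. BCAM, a cell adhesion molecule gene, lay highest at 0.75.

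The APOL genes on chromosome 22 had neighbours on both sides of 0. Of 10, 7 were above 0, against 57.5% of all genes, and 6 had an unadjusted p under 0.05, against 22.9%, with 0 called and a median of 0.15. The DNA replication gene MCM5, the nearest tested gene to APOL6 on its outer side, read 1745 against 3113 and 5288 (limma adjusted p = 0.109), and MYH9, the non-muscle myosin gene next to APOL1, 2367 against 4134 and 3953 (adjusted p = 0.124). RBFOX2, which lies between APOL6 and APOL3, differed by 0.48. TIMP3, farther out, read 34008 against 14672 and 21581 (adjusted p = 0.1002). Around APOM and APOO the medians were 0.17 and -0.019 with 0 of 10 called in each. Beside CLU 2 of 10 were called higher, against 1.5% of all genes. They were DPYSL2 (891.7 against 2655 and 4391, adjusted p = 0.0424) and PNMA2 (692.9 against 1876 and 2201, adjusted p = 0.0436), genes known from neurons. Both calls were lost without the filter, with the filter at the 75th percentile, with quantile normalization and without the trend. Over the 60 neighbours 2 were called, against 2.64% of all genes. In the mean 30 were above 0 and 30 below, against 57.5% and 42.5% of all genes.

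**Figure D4:**
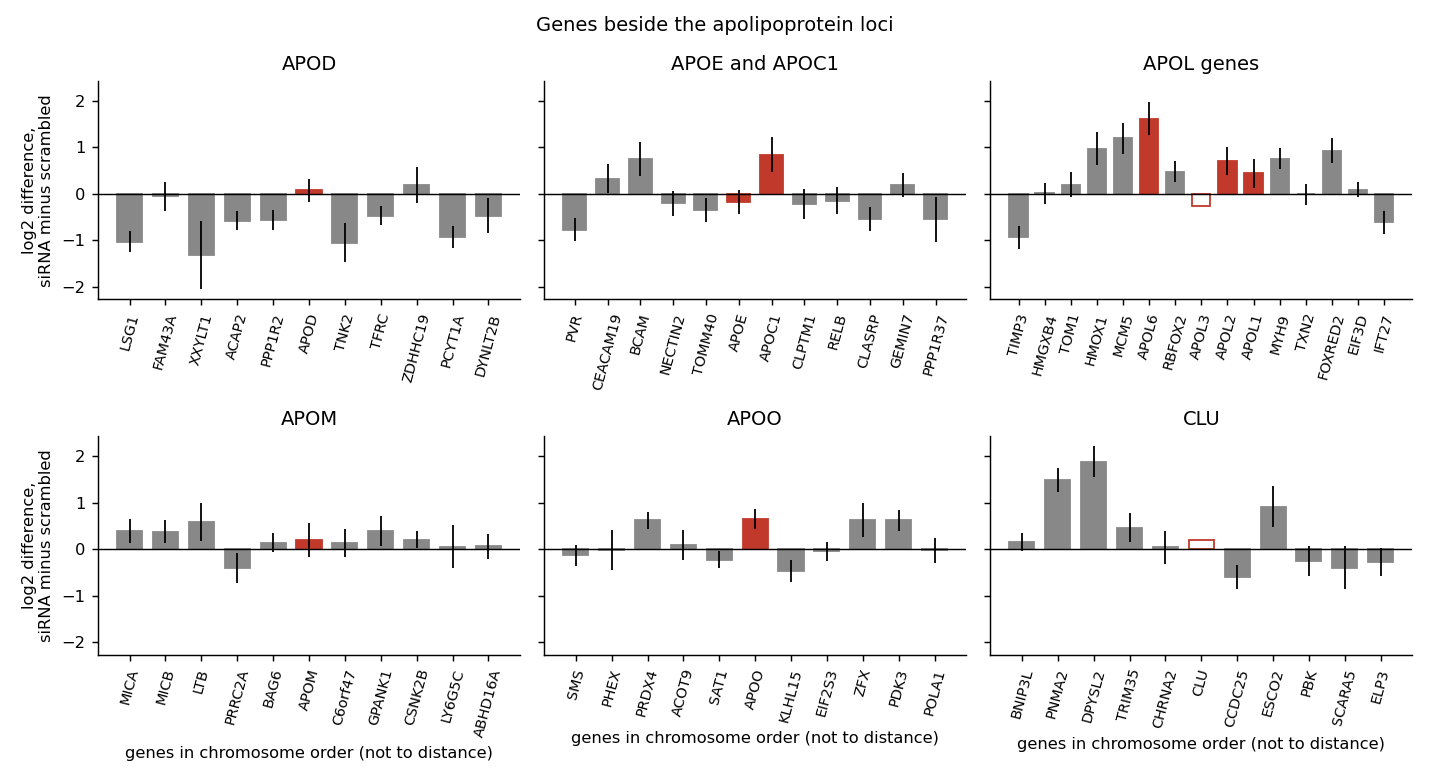
Log2 difference of siRNA from scrambled cells for members (red) and neighbouring tested genes (grey) in chromosome order at the 6 loci, with bars from 0 and lines of 1 SE from limma. Open bars are the untested members APOL3 and CLU. Of the 10 neighbours of APOD 9 lie below 0, while APOD lies at 0.073 (-0.096 with arrays centred on their medians).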

How the data were processed

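Total RNA of SK-Mel-28 cells was hybridised to 3 single-colour Affymetrix arrays (1 scrambled, 2 MTf siRNA). The authors deposited 1 linear intensity per probe set and array, made with GCOS 1.3 per the submitters' processing notes; trimmed means (2% at each end) of 1000.14, 1000.12 and 1000.13 show a common scaling. Its other settings are not stated in the sources, and detection calls were not at hand. Precision is limited by the number of arrays.

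Of 54675 probe sets, 62 controls were left out. The platform annotation gave 41091 of the rest 1 gene, 1801 several and 11721 none, and matching Entrez identifiers to GRCh38.p14 changed 0 symbols. Other samples' value columns numbered 0. Signals were analysed as log2(signal + 47.4), the pseudocount being the 25th percentile, which understates changes of dim probe sets. The 27306 probe sets above the median mean were fitted with limma 3.58.1 in R 4.3.3 (lmFit, eBayes with trend, two-sided, Benjamini-Hochberg at 0.05 over all). The code was tried on simulated data with less spread than these arrays, which does not show its error rate on them. The fit has 1 residual degree of freedom plus 6.36 from moderation, and the lone scrambled array is assumed to vary like the siRNA arrays. Signals under the highest trp control, 97.2, were taken as background, and folds from them are lower bounds.

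Members and lists were chosen with earlier results of these data known. Named were all members; of other lists the genes called or, below 4, those with the largest smaller-of-2 differences; the 3 genes most like APOD, APOE and CLU; the neighbours were set by position. Of the neighbours, those described in the text were chosen after their values were seen, as were CD36, APOBR, SORL1, ABCA1, NR1H3 and the other apolipoprotein genes besides APOOL.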

Additional observations from a re-analysis of the deposited data

How the results depend on the processing

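The siRNA differences of the 8 tested members were recomputed with other pseudocounts (16 and 100), filters, scalings, variance models and probe set rules, and for each siRNA array alone. APOD turned to -0.096 with arrays centred on their medians and to -0.090 with arrays centred on the medians of the tested probe sets, an alternative added after seeing the data. With siRNA array 1 alone APOD was also below 0, at -0.15. APOM turned to -0.16 as the mean of its probe sets. Centring on all medians called 1 member (APOL6), 2 lipid transport genes and 3 interferon genes; the other centring called 1 interferon gene (IFIT1), as did the pseudocount of 16. The lipid transport call was 0 without the filter, with the 75th percentile filter, without the trend and with the mean of the probe sets, which called 4 interferon genes; quantile normalization called 1 lipid gene, but NPC2 in place of NPC1. The members' median fell to 0.32 without the filter, which adds APOL3 and CLU, and to 0.073 at the 75th percentile, which leaves 3 members and 0 that were 2-fold on both arrays. It was 0.39 to 0.69 with either siRNA array left out, and 1 member was 2-fold on each array alone; no test is possible there, as no residual degree of freedom is left. Over all genes 327 were called, 56.9% higher, against 1 without the filter or trend, 5 at the 75th percentile, 216 with quantile normalization, 832 centred on all medians (38.8% higher) and 414 with the other centring (36.0% higher). The cause of these changes was not tested. No paired analysis was possible because the scrambled group has 1 array, so fewer than 2 numbers are shared. With 1 scrambled array and dim signals for APOL3 and CLU, their changes were not detectable.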
